A study of Mus musculus with 6 samples.

Results

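The mRNAs for subunits of the respiratory chain were compared between KRAP-/- livers and livers of wild-type littermates. A set of 39 genes for subunits of complexes I to IV and for cytochrome c was taken, all of them nuclear, and every probe set annotated to exactly 1 of these symbols was used. This gave 83 probe sets for 38 of the 39 genes, out of 45037 probe sets on the array and 18193 genes named by them. No probe set is named here for Cox7b, and no symbol of ATP synthase is in the set, so the subunits of ATP synthase are described apart. RNA came from 3 KRAP-/- livers and 3 wild-type livers, with 1 Affymetrix Mouse Genome 430 2.0 array per mouse, and each KRAP-/- mouse has a wild-type littermate of the same number. All 6 mice were 32 weeks old and fed normal chow. The KRAP-/- mice carry a germ-line disruption in which exons holding much of the coding region gave way to a neomycin resistance cassette. The disruption is therefore carried by every cell of these animals and not by hepatocytes alone. Signals of the arrays were divided by the median of each array, and a difference is the log2 of KRAP-/- over wild-type, taken from a limma model that blocks on littermates and covers 28557 probe sets with a mean of at least 0.5 array medians. Of the 83 probe sets, 78 passed this filter on dim signals, and each of the 38 genes kept at least 1.

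Oxidative phosphorylation is the last stage of fuel oxidation. Complex I takes electrons from NADH and complex II from succinate, ubiquinone hands them to complex III, cytochrome c to complex IV, and complex IV to oxygen. Complexes I, III and IV pump protons as they do so, and ATP synthase uses the gradient to make ATP. Hepatocytes are rich in mitochondria and rely on this chain for fatty acid oxidation, gluconeogenesis and urea synthesis. The KRAP-/- mice were studied for altered whole-body energy balance, so the comparison asks whether mRNAs of this machinery differ in their liver.

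No subunit of the chain passed the test in either direction. Of the 78 probe sets tested, 0 were higher and 0 were lower in the KRAP-/- group when limma's adjusted p of 0.05 was the limit, against 0.42% higher and 0.97% lower among all probe sets tested. At an unadjusted p under 0.05, 0 were higher, against a background of 5.59%, and 5 were lower, which is 6.41% of them against a background of 9.24%. These 5 belonged to Cox5b, Cox7a2, Ndufs4 and Ndufs8, with a pair of them from Ndufs8. By the fold rule of the study's methods, at least 1.5-fold in each of the 3 littermate pairs, 0 of the 83 probe sets were up and 0 were down, against 2.3% and 2.88% of all probe sets on the array. The rule was run here on dim probe sets as well and without a floor, so these background shares are not those of the study's own gene lists. The lowest adjusted p of any probe set of the set was 0.26 (limma), at a dimmer probe set of Ndufs8.

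The data bound nearly every subunit closely at its brightest probe set. At the brightest probe set of each gene, the 95% interval of the difference lay inside 1.5-fold in both directions for 38 of 38 genes, against 49.8% of all 13224 genes tested. Cox7c is measured at dim probe sets alone, and without it the count was 37 of 37, against 88.8% of the 1524 genes at least as bright as Ndufs4, the dimmest of the 37. Apart from Cox7c, the lowest bound was that of Sdhc, at 0.747 times the wild-type level, and the highest that of Ndufa10, at 1.29 times. The interval of Cox7c ran from 0.703 to 1.38 times, at signals of 1.69 to 2.78 array medians. No detection calls were used here, so whether a dim probe set reads above background is not known and this interval may not bound the transcript of Cox7c. The limit of 1.5-fold was chosen for this count after the data were seen. Smaller changes than these bounds are not shown to be absent. The bounds hold for the probe set read and not for other probe sets of the same gene. That of the dim second probe set of Ndufa10, for example, reached down to 0.526 times.

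**Figure D1:**
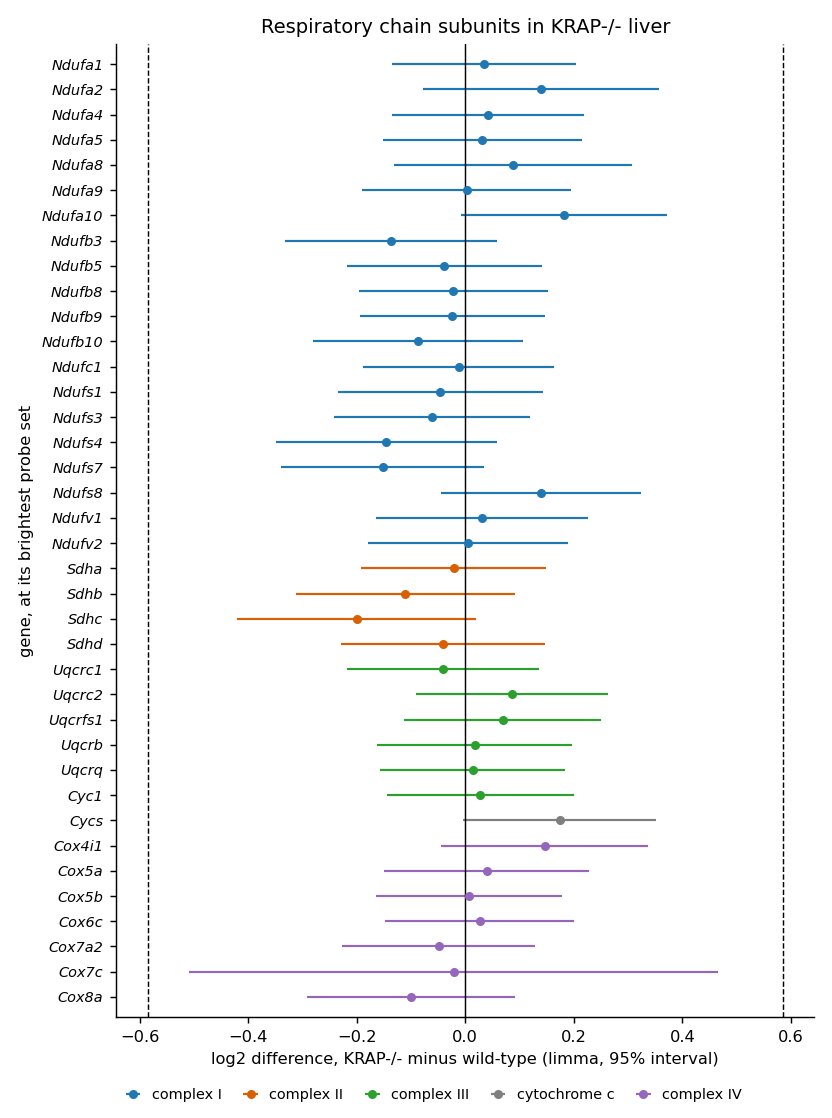
Fitted log2 difference between KRAP-/- and wild-type liver for 38 genes, each at its brightest probe set, coloured by complex. Bars are 95% intervals from limma and dashed lines mark 1.5-fold; every bar lies between the dashed lines, and that of Cox7c is the widest, from −0.51 to 0.47.

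The 38 differences lay near 0. Their median was 0.0039 on the log2 scale, with 20 genes higher and 18 lower, where the median was −0.037 over all probe sets tested and −0.075 over all genes at their brightest probe set. The quartiles of the 38 were −0.045 and 0.038, and their standard deviation was 0.090, close to the median standard error of a single gene of the set, 0.081. Among the 1524 genes at least as bright as Ndufs4 the standard deviation was 0.25, with a median standard error of 0.087. Gene by gene, the ratio within 1 littermate pair said little of the ratio within another. Across the 38 genes Pearson's r was 0.27 between pairs 1 and 2, 0.17 between pairs 1 and 3 and 0.20 between pairs 2 and 3, with Spearman's rho of 0.25, 0.11 and 0.087. The points are genes measured on the same 6 arrays at the same probe sets, so they are not independent replicates.

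Over the 78 probe sets, 8 were higher in all 3 pairs, which is 10.3% against a background of 15.3%, and 17 were lower in all 3 pairs, 21.8% against 22.3%. The 8 belonged to Cox6c, Cycs, Ndufa1, Ndufa10, Ndufs8 and Uqcrc2. These counts move with the scaling of the arrays, as given with the scalings. For 6 probe sets, 7.69%, the arrays of the genotypes did not overlap, against a background of 20.1%. Of these only the brightest probe set of Cycs was higher in KRAP-/- liver, and the other 5, of Cox5b, Cox7a2, Ndufs4 and Ndufs8, were lower.

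Nuclear respiratory chain genes share a small group of known promoter motifs, and 1 promoter from each complex that held a match is shown so that these letters can be read beside the mRNA values that follow. The motifs searched were CGCATGCG for NRF1, CCGGAAG for the ETS family, which includes GABP, AAGGTCA for the ERR nuclear receptors and AAGATGGCG for YY1, on both strands, in the 250 bases before and the 50 bases from the start of each gene. RefSeq promoters of GRCm38.p6 were matched for 29 of the 39 genes, with 30 promoters. The NRF1 letters were in 3 of these 30, those of Cycs, Ndufa8 and Uqcrc1, and in 1.87% of all 32851 promoters. The ETS letters were in 5, of Cox8a, Ndufs3, Ndufs8, Sdhb and Sdhd, and in 8.86% of all. The YY1 letters were in 4, of Ndufa9, Ndufc1, Ndufs4 and Ndufs7, and in 1.4% of all. The ERR letters were in 1, that of Sdhd, and in 4.72% of all. A match is not a bound site. Each sequence is written 5′ to 3′ on the strand of its gene and ends 30 bases into the transcript, with the matched letters in capitals, an NRF1 match for Cycs and ETS matches for the other genes.
Ndufs3, chr2:90904692-90904971, minus strand: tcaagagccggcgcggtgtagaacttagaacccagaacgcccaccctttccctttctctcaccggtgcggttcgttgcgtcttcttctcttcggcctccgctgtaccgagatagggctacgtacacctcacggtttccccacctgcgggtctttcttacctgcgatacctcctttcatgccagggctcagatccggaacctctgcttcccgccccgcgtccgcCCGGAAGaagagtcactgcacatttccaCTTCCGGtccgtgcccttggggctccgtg
Sdhb, chr4:140961021-140961300, plus strand: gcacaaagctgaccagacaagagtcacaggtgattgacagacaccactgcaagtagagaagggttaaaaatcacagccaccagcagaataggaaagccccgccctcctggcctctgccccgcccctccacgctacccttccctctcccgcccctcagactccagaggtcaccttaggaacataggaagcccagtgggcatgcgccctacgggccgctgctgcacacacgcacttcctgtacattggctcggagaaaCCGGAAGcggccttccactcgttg
Cycs, chr6:50566540-50566819, minus strand: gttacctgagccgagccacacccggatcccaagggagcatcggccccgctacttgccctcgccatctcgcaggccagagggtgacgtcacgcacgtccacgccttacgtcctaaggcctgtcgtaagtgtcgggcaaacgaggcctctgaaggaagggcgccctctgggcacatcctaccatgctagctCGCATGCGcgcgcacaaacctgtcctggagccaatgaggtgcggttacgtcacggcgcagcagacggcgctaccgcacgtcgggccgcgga
Cox8a, chr19:7217587-7217866, minus strand: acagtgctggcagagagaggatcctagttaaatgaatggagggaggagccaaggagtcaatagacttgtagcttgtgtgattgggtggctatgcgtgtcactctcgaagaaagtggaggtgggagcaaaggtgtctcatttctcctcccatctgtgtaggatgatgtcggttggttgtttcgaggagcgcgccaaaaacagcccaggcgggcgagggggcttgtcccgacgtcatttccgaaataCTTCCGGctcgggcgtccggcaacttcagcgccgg
The match of Cycs began 61 bases before the start, and that of Cox8a in capitals 5 bases before it. Cox8a held another ETS match 32 bases after the start, beyond the stretch printed. Ndufs3 held a pair of ETS matches on opposite strands, the first 27 bases before the start. No promoter of complex III is shown, since its only match, in Uqcrc1, began 31 bases after the start and lies beyond the stretch printed. With the arrays scaled to their median, members with the letters of NRF1, ETS or YY1 read to both sides of 0 in each of these groups. With NRF1 letters, Cycs read 0.17, Ndufa8 0.088 and Uqcrc1 −0.041. With ETS letters, Ndufs8 read 0.14, while Sdhb, Cox8a, Ndufs3 and Sdhd read −0.11, −0.10, −0.061 and −0.041. With YY1 letters, Ndufa9 read 0.0029, while Ndufs7, Ndufs4 and Ndufc1 read −0.15, −0.15 and −0.012. These are values at the brightest probe set of each gene, and none passed the test. The signs of the smaller ones can turn with the scaling, as given with the scalings.

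Complex I, the NADH dehydrogenase, is built of a matrix arm that holds the flavin and the iron-sulfur clusters and a membrane arm that pumps protons. Of its 20 genes measured, 10 were higher and 10 lower in KRAP-/- liver, none past the test, with a median of −0.0047 and a range from −0.15 to 0.18. The median ratio was −0.047, −0.026 and 0.014 on the log2 scale in pairs 1, 2 and 3. Ndufa4 is now often counted with complex IV, and doing so gave medians of −0.012 for complex I and 0.017 for complex IV.

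Ndufv1 binds NADH and the flavin through which electrons enter. Its signal in array medians was 105.9, 105.4 and 101.9 in KRAP-/- mice 1, 2 and 3 and 111.9, 92.2 and 103.6 in their littermates. The genotypes overlapped fully, and the fitted difference was 0.030 (standard error 0.086, adjusted p = 0.905 from limma).

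Ndufs1 is the largest iron-sulfur subunit of the matrix arm. It read 55.4, 50.1 and 48.2 in KRAP-/- liver and 55.5, 50.5 and 52.4 in wild-type liver, again with overlap. The difference of −0.046 changed sign when the arrays were scaled in any of 6 other ways.

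Ndufs7 holds the last iron-sulfur cluster before ubiquinone, and it had the largest fall in value among the 20 genes. The signals were 86.1, 74.2 and 73.0 in KRAP-/- mice and 91.9, 79.3 and 87.8 in wild-type mice. The KRAP-/- mouse was the lower one in each pair, but the genotypes overlapped because KRAP-/- mouse 1 lay above wild-type mouse 2. The difference was −0.15 (standard error 0.083, adjusted p = 0.44 from limma), and the only other probe set of the gene read 0.00050.

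Ndufs4 is an accessory subunit of the matrix arm whose loss destabilises the complex. At its brightest probe set the KRAP-/- livers read 34.5, 34.4 and 36.4 and the wild-type livers 41.6, 36.9 and 38.2. Every KRAP-/- liver lay below every wild-type liver, by a small margin between KRAP-/- mouse 3 and wild-type mouse 2. The difference was −0.15 (adjusted p = 0.49 from limma). The 2 dimmer probe sets tested read −0.30 (adjusted p = 0.31) and −0.12 (adjusted p = 0.71), so all 3 were on the same side of 0.

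Ndufa10, an accessory subunit of the membrane arm with a fold like that of nucleoside kinases, had the largest rise in value. It read 122.7, 111.6 and 128.5 in KRAP-/- liver and 115.0, 102.6 and 102.1 in wild-type liver. Each KRAP-/- mouse was above its littermate, while KRAP-/- mouse 2 lay below wild-type mouse 1. The difference was 0.18, with a 95% interval from −0.0087 to 0.37 and an adjusted p of 0.36 from limma. A dim second probe set, between 1.04 and 2.91 array medians, read −0.29, which is the widest gap between probe sets of 1 gene in the set.

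Ndufs8, a ferredoxin-like subunit next to Ndufs7, was singled out after its values were seen because its probe sets were on opposite sides of 0. The brightest of 6 tested read 190.5, 194.6 and 162.4 in KRAP-/- liver and 163.4, 194.1 and 142.0 in wild-type liver, a difference of 0.14 (adjusted p = 0.47 from limma) with overlap between the genotypes. A dimmer probe set read 40.5, 38.5 and 41.5 against 52.2, 43.5 and 46.8, with all KRAP-/- livers below all wild-type livers. Its difference was −0.24, with an unadjusted p of 0.025 and an adjusted p of 0.26 from limma. Of the other 4, 3 were lower and 1 higher, from −0.27 to 0.0665. Which of these reads the transcript of Ndufs8 best cannot be told from the signals, and 3 of the 6 have IDs ending in _x_at, a mark for probe sets that may bind other transcripts.

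The other 14 genes of complex I lay between −0.14 (Ndufb3) and 0.14 (Ndufa2). Ndufb3, a small subunit of the membrane arm, was lower in each of the 3 pairs, with 53.8 ± 1.85 against 59.2 ± 5.24 array medians (SD, n = 3 each). Ndufa2 was lower in pair 1 and higher in pairs 2 and 3. Ndufa9, near the ubiquinone pocket, and Ndufv2, which sits beside Ndufv1, read 0.0029 and 0.0049.

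**Figure D2:**
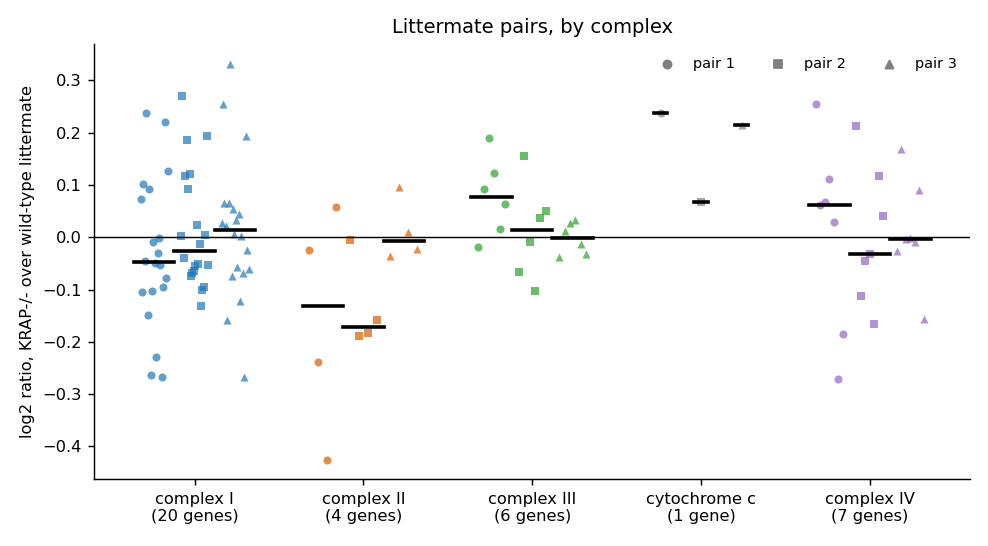
Log2 ratio of KRAP-/- over its wild-type littermate for each gene at its brightest probe set, by complex and by pair (circle, square and triangle for pairs 1, 2 and 3), with black bars for the median of a pair. Complex I spreads to both sides of 0 in each pair, complex II has medians of −0.13 and −0.17 in pairs 1 and 2 and −0.0070 in pair 3, and cytochrome c lies above 0 in all 3.

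Complex II, the succinate dehydrogenase, is also an enzyme of the tricarboxylic acid cycle. At their brightest probe sets all 4 of its genes read lower in KRAP-/- liver, from −0.20 to −0.022 with a median of −0.076, and none passed the test. The medians of the pairs were −0.13, −0.17 and −0.0070, so the fall in value came from pairs 1 and 2. This is the only complex whose median stayed below 0 under all 7 scalings tried, with a highest value of −0.018. Sdhc and Sdhb read below 0 under each of the 7, while Sdha did so with the array median alone.

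Sdhc, 1 of the membrane anchors that hold the heme, read 80.5, 82.4 and 79.6 in KRAP-/- liver and 108.1, 93.6 and 79.1 in wild-type liver. The KRAP-/- livers were close together and the wild-type livers spread, with wild-type mouse 3 below all KRAP-/- mice. The difference was −0.20, with a 95% interval from −0.42 to 0.021 and an adjusted p of 0.38 from limma. It was −0.087 without pair 1 and −0.30 without pair 3. Its dimmer probe set read −0.25 (adjusted p = 0.46).

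Sdhb, the iron-sulfur subunit, read 175.4, 159.1 and 163.1 in KRAP-/- liver against 207.1, 181.4 and 152.5. As for Sdhc, wild-type mice 1 and 2 lay above all KRAP-/- mice and wild-type mouse 3 below them, and the difference was −0.11 (adjusted p = 0.61 from limma), with −0.046 without pair 1 and −0.21 without pair 3. Sdha, the flavoprotein that oxidises succinate, read 161.7, 141.0 and 141.2 against 164.5, 141.5 and 144.7. The littermates were almost equal in each pair, and the difference of −0.022 turned positive under each of the 6 other scalings. Other probe sets of Sdha that were tested read −0.16 and 0.19, the last at 3.89 to 5.72 array medians. Sdhd, the other anchor, was at −0.041, small enough for its sign to turn with the scaling. Its dimmer probe set read 0.092.

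Complex III, the cytochrome bc1 complex, had 5 of 6 genes higher and 1 lower, with a median of 0.023 and a range from −0.041 to 0.086, none past the test. The medians of pairs 1, 2 and 3 were 0.078, 0.014 and −0.00050.

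Uqcrc2, a core subunit, read 155.7, 145.8 and 146.9 in KRAP-/- liver and 146.1, 131.0 and 145.7 in wild-type liver. The KRAP-/- mouse was the higher one of each pair, by a small margin in pair 3, and the genotypes overlapped. The difference was 0.086 (adjusted p = 0.65 from limma), and its dimmer probe set read 0.091. Uqcrc1, the other core subunit, was the 1 gene below 0, at −0.041.

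Uqcrfs1, the Rieske iron-sulfur protein, read 176.1, 161.4 and 161.5 against 154.5, 162.5 and 158.5. Mouse 1 of the KRAP-/- group stood above the rest, and the difference was 0.069 (adjusted p = 0.74 from limma). Cyc1, cytochrome c1, read 205.7, 177.1 and 161.6 against 196.8, 171.0 and 165.2, with the same order of mice in both genotypes and a difference of 0.028 (adjusted p = 0.90). The small subunits Uqcrb and Uqcrq were at 0.018 and 0.013.

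Cycs, cytochrome c, carries electrons from complex III to complex IV and is released from mitochondria in apoptosis. Its brightest probe set read 253.8, 230.7 and 260.4 in KRAP-/- liver and 215.2, 220.2 and 224.3 in wild-type liver. All KRAP-/- livers lay above all wild-type livers. The difference was 0.17 (standard error 0.079), with a 95% interval from −0.0035 to 0.35, an unadjusted p of 0.054 and an adjusted p of 0.35 from limma. Under the 17 alternatives it ranged from 0.14 to 0.23, with adjusted p-values from limma of 0.21 (quantile normalization) to 0.61 (no intensity trend). The 3 dimmer probe sets read 0.11, −0.030 and 0.13. The middle one of these was lower in pairs 1 and 2, and the last was dim, at 0.709 to 1.06 array medians. The promoter of Cycs shown above held an NRF1 match, as did those of Ndufa8 and Uqcrc1, which are not printed.

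Complex IV, cytochrome c oxidase, has its catalytic core encoded in mitochondrial DNA, and its nuclear subunits surround this core. Of 7 genes measured 4 were higher and 3 lower, with a median of 0.0070, a range from −0.10 to 0.15 and none past the test. The medians of pairs 1, 2 and 3 were 0.062, −0.032 and −0.0025.

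Cox4i1, the ubiquitous form of the subunit that binds ATP and ADP, read 366.2, 322.6 and 314.5 in KRAP-/- liver and 307.0, 278.6 and 320.4 in wild-type liver. It was higher in pairs 1 and 2 and slightly lower in pair 3, and the genotypes overlapped. The difference was 0.15 (standard error 0.085, adjusted p = 0.46 from limma).

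Cox5a read 278.4, 245.2 and 282.5 against 266.7, 265.1 and 251.2, with KRAP-/- mouse 2 the lowest of all 6. Its difference of 0.040 became −0.025 without pair 3. Cox8a, a small subunit, read 87.7, 82.8 and 79.2 against 99.6, 80.4 and 88.3, with overlap, for a difference of −0.10 (adjusted p = 0.63 from limma).

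Cox7a2, the liver form of subunit VIIa, and Cox5b were chosen after their values were seen, since a dimmer probe set of each fell below an unadjusted p of 0.05. That of Cox7a2 read 126.9, 120.0 and 126.8 against 158.4, 142.7 and 129.3, all KRAP-/- livers being below all wild-type livers, for a difference of −0.20 (adjusted p = 0.33 from limma). Its brightest probe set read −0.049 and was higher in pair 1. That of Cox5b read 126.1, 122.4 and 112.7 against 147.5, 132.6 and 128.3, also without overlap, for a difference of −0.18 (adjusted p = 0.34). The brightest probe set of Cox5b read 0.0070, and its others tested read −0.069, −0.11 and, at a dim one, 0.23. Cox6c was at 0.027 and Cox7c, at no more than 2.78 array medians, at −0.021.

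**Figure D3:**
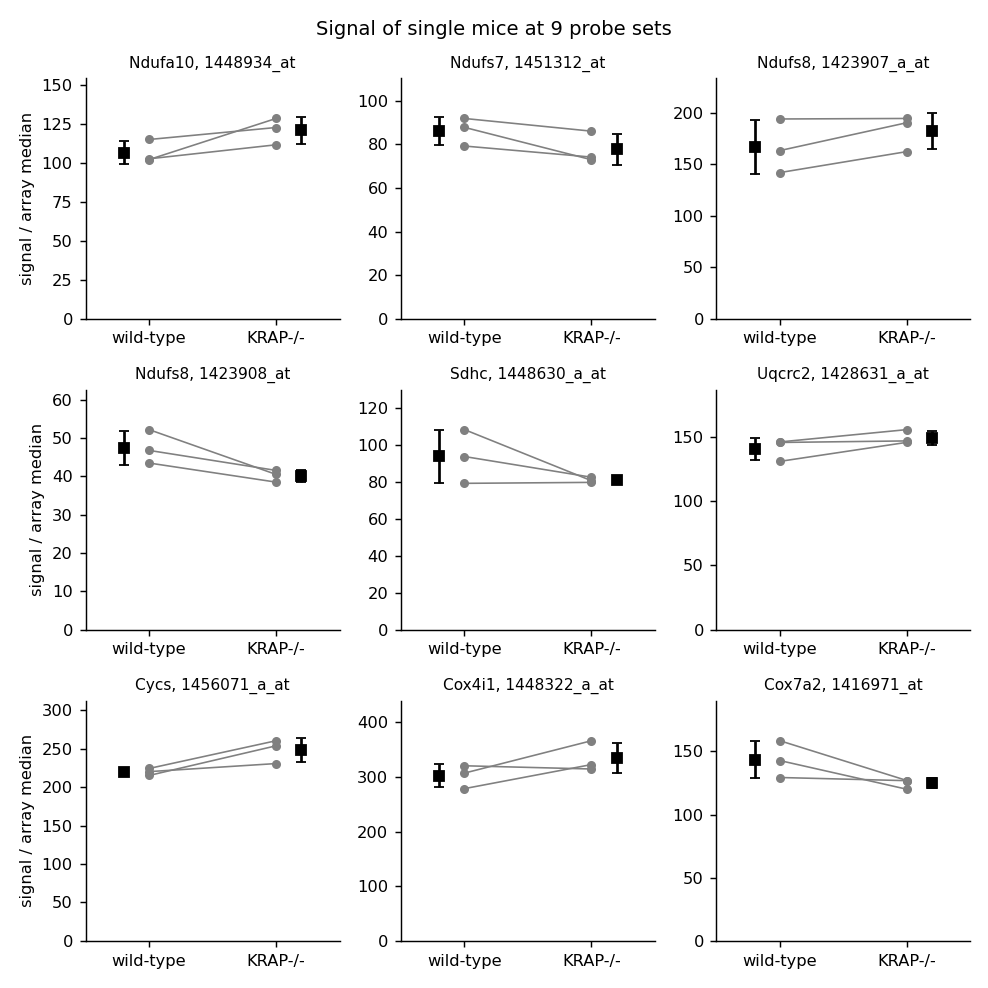
Signal in multiples of the array median, on linear axes from 0, at 9 probe sets of 8 genes, wild-type on the left and KRAP-/- on the right of each panel. Each point is 1 mouse, grey lines connect the mice of a pair, and black squares show the group mean ± SD (n = 3); the genotypes overlap in 6 panels and not at Cycs, the dimmer probe set of Ndufs8 or that of Cox7a2.

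Probe sets of the same gene often differed in sign. Of 24 genes with more than 1 probe set tested, 16 had values on both sides of 0 and 8 on a single side, and 14 genes had 1 probe set. No gene had probe sets further apart than 0.5 on the log2 scale. The largest gap was 0.47 for Ndufa10, followed by 0.41 for Ndufs8 and 0.40 for Cox5b.

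The array scaling decided the sign for many of these small differences. In every pair the KRAP-/- array had a lower ratio of the 75th percentile to the median than its littermate, 4.66, 4.64 and 4.50 against 4.86, 4.71 and 4.78, so a scaling that rests on bright probe sets raises the KRAP-/- values relative to the array median. Under 7 scalings the median of all probe sets ran from −0.037 to 0.021 and that of the 38 genes from 0.0039 to 0.062. The members' median, taken over genes at their brightest probe set, stayed 0.028 to 0.042 above that of all probe sets. These are unlike sets, and with the array median the median over all genes at their brightest probe set was lower, at −0.075. The number of genes higher in KRAP-/- liver was 20 with the array median and 30 with the values as deposited, the 75th percentile, the trimmed mean or the median of bright probe sets, and the number lower fell from 18 to 8.

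The complexes moved together with the scaling, with cytochrome c highest and complex II lowest under each of the 7. Complex I ran from −0.0047 to 0.053, complex III from 0.023 to 0.081, complex IV from 0.0070 to 0.065 and cytochrome c from 0.17 to 0.23. Complex II ran from −0.076 to −0.018. The number of probe sets of the set past an adjusted p of 0.05 was 0 under each of the 7 scalings.

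**Figure D4:**
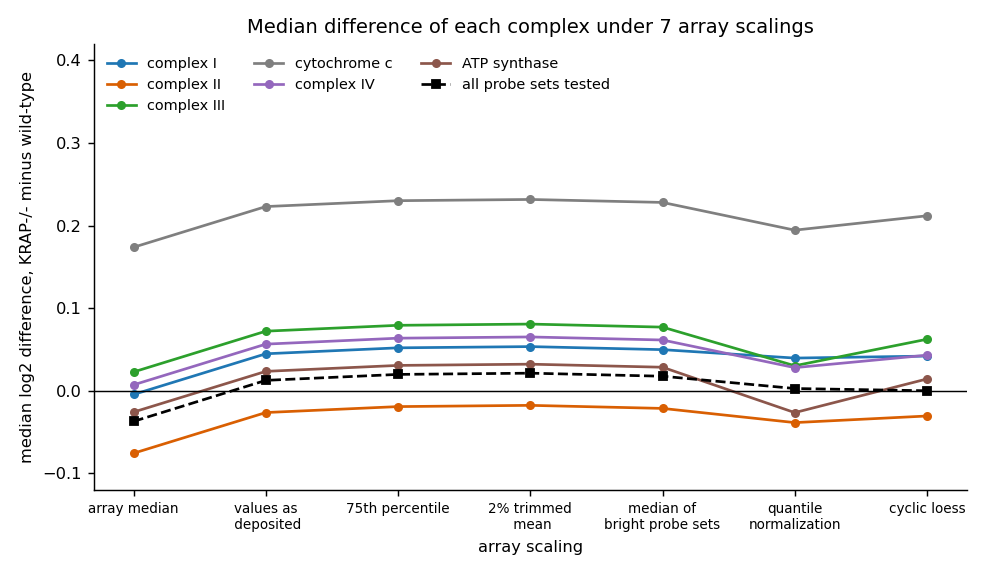
Median log2 difference of each complex, of ATP synthase and of all probe sets tested under 7 ways of scaling the arrays. Complex I crosses 0 between the array median and the other scalings, ATP synthase lies between −0.027 and 0.032, and complex II is the only line below 0 throughout.

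ATP synthase, described from a list of 16 genes, had 0 higher and 0 lower at an adjusted p under 0.05 from limma. Their median was −0.026, with 12 of 16 lower, and this sign turned with most other scalings. Atp5f1a and Atp5f1b, the subunits of the catalytic head, read −0.029 and −0.0099. Atp5if1, the inhibitor that blocks the enzyme from running backwards, had the largest value. It read 12.2, 12.1 and 12.5 in KRAP-/- liver and 18.3, 15.3 and 16.3 in wild-type liver, with no overlap, a difference of −0.44 and an adjusted p of 0.097 from limma, and it did not pass under any of the 17 alternatives. A pair of dimmer probe sets, at 0.407 to 1.49 array medians, read 0.13 and −0.20. At an unadjusted p under 0.05 and at brightest probe sets, Atp5if1 was the 1 gene of the 16 lower, and 0 were higher. This is 6.25% lower, beside 11.7% of all genes. Atp5me read −0.16 at its brightest probe set (adjusted p = 0.37 from limma). Its dimmer probe sets read −0.21 (interval −0.39 to −0.023, adjusted p = 0.28) and −0.20 (interval −0.39 to −0.0064, adjusted p = 0.32). Each of these probe sets of Atp5me was lower in every pair.

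Other subunits of the chain that were not in the set gave like values. Of 13 further subunits of complex I tested, 0 were called, with a median of −0.047 and a range from −0.16 (Ndufb6) to 0.093. Of 3 further subunits each of complexes III and IV, 0 were called, with medians of −0.039 and 0.0051. The muscle, heart and lung forms of complex IV subunits were dim, 4 of 5 passing the filter and 0 called. In these lists 0 genes had an unadjusted p under 0.05 from limma. None of 13 genes of mitochondrial DNA is named on the array table used here, so the subunits encoded in that DNA were not measured.

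Among 35 assembly factors tested, which build the complexes without staying in them, 1 was lower and 0 were higher by limma, where 1.29% of all genes were lower and 0.318% higher at their brightest probe set. The median was −0.12, beside −0.075 over all genes. At an unadjusted p under 0.05, 6 were lower (17.1%) and 2 higher (5.71%), beside 11.7% and 3.95% of all genes. The 1 gene was Acad9, an acyl-CoA dehydrogenase family protein needed to assemble complex I. It read 15.4, 13.8 and 14.4 in KRAP-/- liver and 23.0, 20.9 and 19.2 in wild-type liver. The genotypes did not overlap, and the difference was −0.53 (standard error 0.10, adjusted p = 0.040 from limma). It passed under 7 of 17 alternatives and under none of the 6 other scalings, where its adjusted p was 0.062 to 0.11, nor without pair 1 (adjusted p = 0.11) or pair 2 (adjusted p = 0.10). Over the 17 alternatives its adjusted p ranged from 0.026 to 0.42. A dimmer probe set of Acad9 read −0.40 (adjusted p = 0.23), and the dimmest, at 0.0900 to 1.14 array medians, read 1.01 (adjusted p = 0.56) and was lower in pair 3.

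Of 14 regulators of mitochondrial genes 0 were called, with a median of 0.084, and 2 were higher (14.3%) and 3 lower (21.4%) at an unadjusted p under 0.05, beside 3.95% and 11.7% of all genes. Ppargc1a, the coactivator that drives mitochondrial biogenesis and hepatic gluconeogenesis, had the largest value. It read 7.33, 7.21 and 8.28 in KRAP-/- liver and 4.45, 5.33 and 4.47 in wild-type liver, without overlap. The difference was 0.68 (95% interval 0.36 to 1.01, adjusted p = 0.059 from limma). It passed under 3 of 17 alternatives, with the trimmed mean (adjusted p = 0.047), with no littermate block (adjusted p = 0.040) and without pair 2 (adjusted p = 0.026), with 0.026 to 0.42 over all of them. Its 4 dimmer probe sets read 0.34 to 0.55, none past the test. The 3 lower genes were Gabpb1, Polg and Twnk, at −0.54, −0.31 and −0.47, and the higher ones were Ppargc1a and Tfb2m, the last at 0.34. A dimmer probe set of Gabpb1 read −1.10. Nrf1, Gabpa, Esrra and Yy1, which bind the motifs searched in the promoters, read 0.19, 0.023, 0.16 and 0.18 at their brightest probe sets, none past the test. Their dimmer probe sets read from −0.90 to 0.23, with both ends at Nrf1.

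Of 12 genes of the tricarboxylic acid cycle 0 were called, with a median of 0.055, and Mdh2, the malate dehydrogenase, was at 0.26 (adjusted p = 0.20 from limma). Of 6 carriers and porins of the mitochondrial membranes 0 were called, with a median of −0.040, and Slc25a4, an ADP/ATP carrier, was at −0.16. At an unadjusted p under 0.05 and at brightest probe sets, Mdh2 was the only gene of both lists. It is 8.33% of the cycle genes, beside 3.95% of all genes higher. A dimmer probe set each of Cs, Dlst and Slc25a4 read −0.25, −0.41 and −0.51, with intervals wholly below 0. Their adjusted p-values from limma were 0.27, 0.32 and 0.16. The brightest probe sets of Cs and Dlst read 0.071 and −0.065. Other dimmer ones read 0.13 for Cs and −0.073 and 0.16 for Dlst.

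The liver label was checked with the 5 hepatocyte markers of 6 that are named on the array, which summed to 6320 to 7175 array medians in KRAP-/- and 6569 to 6941 in wild-type liver. Markers of other cells moved beside the values above. All 5 Kupffer cell markers read lower in KRAP-/- liver, with sums of 113.9 to 118.4 against 135.6 to 159.8, and 1 of them, Clec4f, passed the test (−0.53, adjusted p = 0.026 from limma). It also passed under 14 of 17 alternatives, but not with the values as deposited (adjusted p = 0.070), without the filter (adjusted p = 0.38) or without the intensity trend (adjusted p = 0.42). Sums of the 4 cholangiocyte and the 4 lymphocyte markers named, of which 3 lymphocyte markers were bright enough to test, were 4.76 to 7.70 against 7.51 to 8.52 and 4.48 to 6.11 against 6.51 to 6.82, with 0 called. The 3 adipocyte markers named, of 5, summed to 0.499 to 1.85 against 1.01 to 3.59 with 0 called, and the brown adipocyte marker Ucp1 read at most 0.177 against 0.235 to 2.35. Of the markers of skeletal muscle, erythroid, endothelial and stellate cells 0 were called, and their sums overlapped between the genotypes. Of the 4 stellate markers 3 read lower and 1 higher, from −0.65 to 0.16, and their sum was mostly Reln. Lrat, the lowest of these, read 4.69 to 6.59 against 8.75 to 9.16, a difference of −0.65 (adjusted p = 0.069 from limma). Their part in the values of the respiratory chain was not tested, and in whole liver fewer cells of a type and less RNA per cell cannot be told apart.

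The array medians were 20.1 to 23.3 in KRAP-/- and 19.0 to 22.6 in wild-type liver. The 3′ to 5′ signal ratio of beta-actin, which rises as RNA degrades, ran from 2.28 to 2.32 and from 2.01 to 2.65, with the highest on wild-type array 1. The probe set named for KRAP itself, now Itprid2, read 20.03 to 21.7 against 22.3 to 24.5 (−0.17, adjusted p = 0.45 from limma). It is not placed here inside or outside the deleted exons and so checks nothing about the labels.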

How the data were processed

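The samples were livers from 3 littermate pairs, 1 KRAP-/- and 1 wild-type mouse in each, on 6 arrays. The deposited values are linear signal intensities that the authors made with GCOS, per the labels, and the per-chip and per-gene normalization that the study's methods describe is not in them. Probe sets were named through GEO's annotation of the array, and a gene was read at its brightest probe set over the 6 arrays. After 64 controls were left out, each signal was divided by the array median, floored at 0.1 and taken as log2, and limma 3.58.1 in R 4.3.3 was run on the 28557 of 45037 probe sets whose mean reached 0.5. The littermate pair was a block, eBayes used an intensity trend, and p-values were adjusted by Benjamini-Hochberg with a threshold of 0.05. The fold rule asked for 1.5-fold in all 3 pairs with no floor.

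The pairing comes from the study's design. The correlations of the littermates' deviations from the genotype means were 0.043, 0.0098 and −0.013. Littermates are separate animals, and the number of arrays limits the precision.

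Members, gene lists and the naming rule were all chosen with earlier results of these data known. Values on all 6 arrays were given for the 3 genes of complex I and the 2 of each other complex with the largest difference, and for subunits with catalytic or redox centres. Alternatives were 6 other scalings (values as deposited, 75th percentile, 2% trimmed mean, median of bright probe sets, quantile normalization and cyclic loess), floors of 0.01 and 0.5, a pseudocount of 0.25, a mean of at least 1, no filter, no block, no trend, no cross-hybridizing probe sets and leaving out each pair. The fit was run on simulated data with independent noise and changes of at least 1.5-fold added to bright probe sets. It held no difference between arrays, so it does not test differences as small as those given here or the scaling. Tables used pandas 2.3.3 and numpy 2.4.6 under Python 3.11.15, and plots used matplotlib 3.10.9.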

Additional observations from a re-analysis of the deposited data

How the results depend on the processing

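Under the 17 alternatives 0 probe sets of the respiratory chain genes passed an adjusted p of 0.05 from limma in either direction, and 0 met the fold rule. Without the littermate pair as a block these counts were 0 and 0 as well, with 3 probe sets of the set at an unadjusted p under 0.05, and the block changed no call among the genes of the set. Over all probe sets the count of calls was 397, with 715 without pair 3 and 0 without the filter or without the intensity trend, so these 2 settings say nothing about the set. All 38 genes had intervals inside 1.5-fold, with 37 without the trend (all but Sdhc) and 37 without each pair in turn (all but Cox7c). Without probe sets marked _x_at or _s_at it was 35 of the 37 genes left, as Uqcrq and Cox7c are then read at dim probe sets.

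The counts of probe sets moving one way in all pairs depended on the scaling. With the values as deposited, the 75th percentile, the trimmed mean, the median of bright probe sets, quantile normalization and cyclic loess, 5, 5, 6, 5, 9 and 7 were lower in all pairs, against 17. With the last 5 of these, 19, 21, 19, 16 and 16 were higher in all pairs, against 8. Leaving out a pair, which leaves fewer pairs to agree, gave 15 to 18 higher and 24 to 30 lower.

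In the same order of scalings, the median of all members was 0.0533, 0.0604, 0.0619, 0.0582, 0.0301 and 0.0420, and that of complex I 0.0446, 0.0518, 0.0533, 0.0496, 0.0394 and 0.0418. For the first 4 scalings the medians were 0.0720, 0.0791, 0.0806 and 0.0769 for complex III, 0.0563, 0.0635, 0.0650 and 0.0613 for complex IV and 0.0233, 0.0305, 0.0320 and 0.0283 for ATP synthase, with 0.0141 by cyclic loess. The median of all members was −0.0124 without probe sets marked _x_at or _s_at, −0.0212 over all probe sets tested of each gene and −0.0113 to 0.0045 without 1 pair. That of complex II was −0.1322 to −0.0506 without 1 pair. Among 15 named genes, Ndufs1 turned to 0.0033, 0.0104, 0.0120, 0.0083, 0.0335 and 0.0069 and Sdha to 0.0277, 0.0349, 0.0364, 0.0327, 0.0160 and 0.0219 under the 6 scalings. Without 1 pair, Ndufv1 ran from −0.0515 (without pair 2) to 0.0849 and Cox5a from −0.0253 (without pair 3) to 0.1158. The other 11 kept their direction under all 17 alternatives, and none of the 15 passed the test under any. The shift between scalings follows from how they are built, and the cause of the difference between the arrays was not tested.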
